A study of Mus musculus with 12 samples.

Results

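The peptide and amino acid transporters of the small intestine were followed at the level of RNA in the duodenum of C57BL/6N mice. They are 10 genes taken by symbol: Slc15a1, Slc6a19, Slc6a20a, Slc6a20b, Slc7a9, Slc3a1 and Slc1a1, whose products are known from the apical (brush border) membrane, and Slc7a7, Slc7a8 and Slc16a10, whose products are known from the basolateral membrane. All 10 were found among the 26121 genes listed in both deposited tables. Poly(A) or other RNA selection was not given in the sources used here. RNA was sequenced in 12 libraries, 3 per group. HFD PCN mice had eaten a high-fat diet for 18 weeks from 6 weeks of age and were then injected into the peritoneum once a day for 4 days with 50 mg/kg of pregnenolone 16α-carbonitrile (PCN), a steroid that activates the pregnane X receptor of rodents. HFD Vehicle mice had the same diet and injections of the vehicle, which contained 30% DMSO. HFD mice had the diet and no injection, and Chow mice ate regular chow for the same time. No allele or transgene is labelled in any group, so that the groups share strain, age and tissue. Sex is not given in the labels used here. Nothing in the labels says that the libraries came from separate animals, so that the p-values may measure only technical spread.

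Dietary protein reaches the enterocyte as short peptides and free amino acids, cut loose by pancreatic enzymes and by peptidases of the brush border. PepT1, the product of Slc15a1, takes up dipeptides and tripeptides together with protons. Free neutral amino acids enter by B0AT1 (Slc6a19), proline and related imino acids by SIT1 (Slc6a20a), cationic amino acids and cystine by the heteromer of b0,+AT (Slc7a9) and rBAT (Slc3a1), and glutamate and aspartate by EAAT3 (Slc1a1). On the basolateral side y+LAT1 (Slc7a7) and LAT2 (Slc7a8) exchange amino acids with the blood as partners of the 4F2 heavy chain (Slc3a2), and TAT1 (Slc16a10) lets aromatic amino acids out. Slc6a20b lies next to Slc6a20a in the mouse genome and is its close paralogue.

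The starts of the genes with the clearest differences between groups are shown first, with Slc3a1 for contrast. Each is given from 250 bases before to 50 bases after the RefSeq start site on GRCm38.p6, 5′ to 3′ on the strand of the gene, and capitals mark the motifs found. They lie at chr14:121505205-121505504 (Slc15a1, minus strand), chr9:123678783-123679082 (Slc6a20a, minus strand), chr9:123632489-123632788 (Slc6a20b, minus strand), chr10:40142205-40142504 (Slc16a10, minus strand) and chr17:85028097-85028396 (Slc3a1, plus strand).
Slc15a1: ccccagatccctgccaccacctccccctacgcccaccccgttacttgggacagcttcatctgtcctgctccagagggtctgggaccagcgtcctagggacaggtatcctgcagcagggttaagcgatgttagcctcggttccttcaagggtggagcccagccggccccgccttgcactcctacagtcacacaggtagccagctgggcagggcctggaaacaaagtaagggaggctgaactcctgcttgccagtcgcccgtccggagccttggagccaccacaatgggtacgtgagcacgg
Slc6a20a: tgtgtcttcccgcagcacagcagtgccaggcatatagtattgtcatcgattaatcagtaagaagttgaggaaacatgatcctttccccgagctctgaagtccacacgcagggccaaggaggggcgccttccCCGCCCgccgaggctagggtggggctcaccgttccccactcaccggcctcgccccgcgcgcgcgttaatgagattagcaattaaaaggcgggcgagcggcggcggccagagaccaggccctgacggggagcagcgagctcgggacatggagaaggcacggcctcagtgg
Slc6a20b: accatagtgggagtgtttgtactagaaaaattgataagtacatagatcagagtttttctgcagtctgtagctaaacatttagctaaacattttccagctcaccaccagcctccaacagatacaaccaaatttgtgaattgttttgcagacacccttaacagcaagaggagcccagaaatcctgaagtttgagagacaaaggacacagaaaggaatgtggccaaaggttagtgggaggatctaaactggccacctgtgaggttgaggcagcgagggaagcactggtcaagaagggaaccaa
Slc16a10: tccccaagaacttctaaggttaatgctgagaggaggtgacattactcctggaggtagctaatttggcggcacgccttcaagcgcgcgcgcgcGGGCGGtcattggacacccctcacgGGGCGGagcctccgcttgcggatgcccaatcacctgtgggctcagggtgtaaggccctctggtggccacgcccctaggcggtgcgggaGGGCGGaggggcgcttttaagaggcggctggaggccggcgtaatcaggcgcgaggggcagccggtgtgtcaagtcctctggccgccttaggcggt
Slc3a1: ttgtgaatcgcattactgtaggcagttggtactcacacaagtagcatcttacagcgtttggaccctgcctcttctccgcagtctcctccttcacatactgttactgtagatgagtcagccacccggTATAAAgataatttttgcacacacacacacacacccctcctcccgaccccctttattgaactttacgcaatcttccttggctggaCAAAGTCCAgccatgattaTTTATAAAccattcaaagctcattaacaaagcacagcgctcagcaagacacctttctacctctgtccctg

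RefSeq gave 15 start sites for the 10 genes. The Sp1 box, spelled GGGCGG and read on both strands, stood near a start of 5 of the 10 genes (Slc16a10, Slc1a1, Slc6a20a, Slc7a7 and Slc7a8). Counted by window, it was in 7 of the 15, overlapping windows of Slc7a7 among them. Of the 32851 mouse promoters of the same length 35.7% held it. Slc16a10 held it at -158, -133 and -45 from its start site, and Slc6a20a held it once, on the opposite strand, at -119. Slc3a1 was the member with the core of the binding motif of HNF4, a transcription factor of enterocytes and hepatocytes, spelled CAAAGTCCA, at -39, and it also held the TATA box (TATAAA) on both strands with overlap. The HNF4 core was in 0.475% and the TATA box in 13.6% of all promoters. Paired sites of the pregnane X receptor were searched as copies of AGNTCA in direct repeat 3 or 4 bases apart (DR3 and DR4) and in everted repeat 6 bases apart (ER6). None of the 15 windows held one, against 0.07% (DR3), 0.125% (DR4) and 0.0304% (ER6) of all promoters. Nor did any hold the HNF1 core (0.00913% of all promoters) or the CDX core TTTATG (11.9%). These letters describe the windows alone. The G and C content was 62.7% in the Slc15a1 window, 62.3% in that of Slc6a20a, 65.3% in that of Slc16a10, 46.3% in that of Slc3a1 and 44.0% in that of Slc6a20b.

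Slc6a20a and Slc6a20b matter for one another because their messages are alike. Their coding sequences (GENCODE M21) were identical at 1628 of 1772 aligned bases (91.9%), with an unbroken identical run of 321 bases, and 23.9% of the stretches of 100 bases of Slc6a20a also occurred in Slc6a20b. The ungapped window of 120 bases where they differ most is shown here, near the end of the coding sequence, with the 29 differing bases in capitals.
Slc6a20a: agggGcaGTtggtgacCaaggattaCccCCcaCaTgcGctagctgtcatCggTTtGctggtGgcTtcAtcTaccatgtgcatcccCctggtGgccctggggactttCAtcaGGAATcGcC
Slc6a20b: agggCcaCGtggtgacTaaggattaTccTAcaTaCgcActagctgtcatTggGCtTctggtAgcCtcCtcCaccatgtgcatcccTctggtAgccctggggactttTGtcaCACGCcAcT

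How the authors' counting treated reads that match both genes was not given in the sources used here, and values of Slc6a20b, the rarer of the pair, are therefore uncertain. The other members did not share any stretch of 50 bases within their families in the pairs compared (Slc6a19 with Slc6a20a, and Slc7a7, Slc7a8 and Slc7a9 with one another). Exons of neighbours on the opposite strand cover 1800 of the 8538 exonic bases of Slc6a20b (Sacm1l), 2631 of the 8257 of Slc1a1 (4430402I18Rik), 601 of the 2271 of Slc3a1 (Prepl), 563 of the 4084 of Slc6a20a (Gm17120) and 232 of the 3315 of Slc7a7 (Oxa1l). Whether strand was used in counting was not given in the sources used here, so that reads from those stretches cannot be assigned to one gene with certainty.

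Total counts per library ran from 4676718 to 20684369. Values in counts per 1000000 (CPM) were scaled by TMM over all 12 libraries. Villin (Vil1), a structural protein of the brush border, stood at 1160 to 2349 CPM, and albumin (Alb), made by hepatocytes, at 0.106 to 1.15 CPM, although the extraction protocol speaks of liver. Cyp3a11, a standard target of the pregnane X receptor, stood at 4653 to 11919 CPM in HFD PCN and at 164 to 1155 CPM in HFD Vehicle libraries. A few libraries stood apart. HFD Vehicle 23 had 33.6% of its counts in mitochondrial ribosomal RNA, against 8.69% to 19.2% in the others, and the lowest summed level of 18 enterocyte markers (17175 CPM). HFD 4 had the next lowest (28292 CPM). The chaperone gene Hsp90aa1 was high in HFD Vehicle 23 (1814 CPM) and HFD Vehicle 50 (1479 CPM), with at most 428 CPM elsewhere. In pieces of tissue, fewer cells of a type and less RNA per cell cannot be told apart.

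Per kilobase of exon, the transporters fell into a common and a rare class. Over the 12 libraries Slc6a19 had the highest mean level at 119.8 CPM per kb, followed by Slc15a1 (90.4), Slc3a1 (85.2), Slc6a20a (59.9), Slc7a8 (51.7), Slc7a7 (39.9), Slc7a9 (33.6) and Slc16a10 (26.8 CPM per kb). Slc1a1, at 2.26 CPM per kb, and Slc6a20b, at 0.743 CPM per kb, were rare, and every other member was above both in all 12 libraries. Neighbours in the common class were often not separable. Slc15a1 was above Slc3a1 in 6 of 12 libraries and Slc6a20a above Slc7a8 in 8 of 12, whereas Slc6a19 exceeded Slc15a1 in 10 of 12 and Slc7a8 exceeded Slc7a7 in 11 of 12. The order also differed between groups. Slc15a1 averaged 128.4 ± 28.8 CPM per kb in HFD PCN, 60.6 ± 36.3 in HFD Vehicle, 58.1 ± 24.4 in HFD and 114 ± 39.0 CPM per kb in Chow (SD, n = 3 each). It came next after Slc6a19 in HFD PCN and Chow, and after Slc3a1 in HFD Vehicle and HFD.

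Partner subunits were measured beside the carriers. Collectrin (Cltrn), a partner of B0AT1 in the kidney, stood at 0 to 0.299 CPM and was too low to be tested. The level of Slc7a9 per kb was 0.206 to 0.663 of that of Slc3a1, its heavy subunit, in the 12 libraries. Slc7a8 reached 0.702 to 0.926 and Slc7a7 0.484 to 0.835 of the level per kb of Slc3a2, the heavy chain both use. The ratio of Slc7a8 to Slc3a2 varied less over the libraries than the other two.

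**Figure D1:**
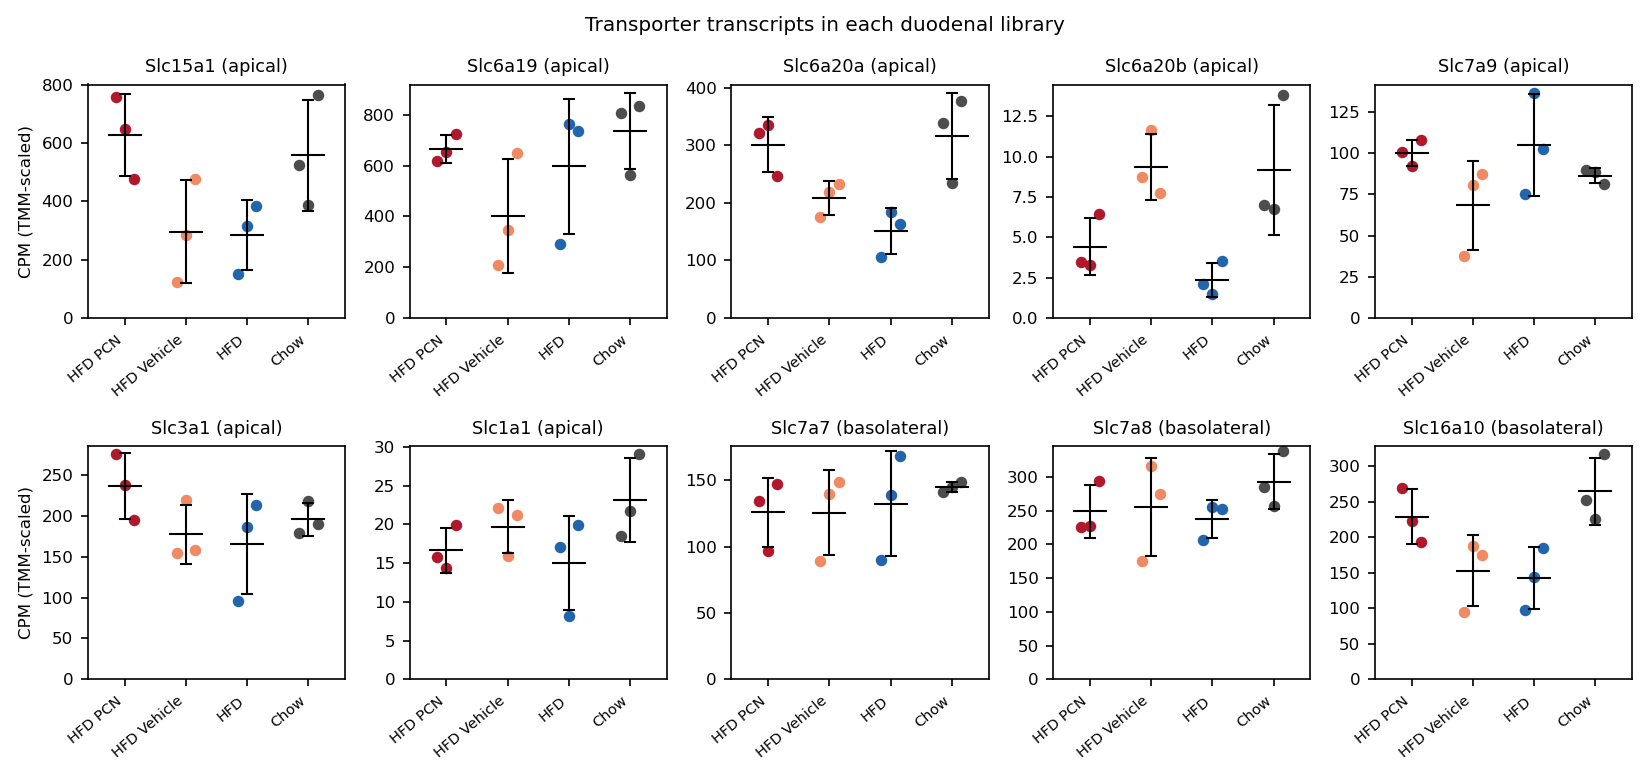
Level of each transporter in every library, in TMM-scaled CPM on a linear axis from 0, by group. Points are libraries and bars the mean ± SD of 3. HFD points of Slc15a1, Slc6a20a, Slc6a20b, Slc7a8 and Slc16a10 all lie under the Chow points, and HFD 4 and HFD Vehicle 23 give the lowest point of their group in most panels.

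The high-fat diet was compared with chow first. On the diet 9 of the 10 transporters had lower fitted levels than on chow, by a median of -0.46 on the log2 scale, where the median over all 15278 genes tested was 0.0046 and 49.5% of genes were negative. Slc6a20b, Slc6a20a, Slc15a1 and Slc16a10 had the largest differences, from -1.94 to -0.88 on the log2 scale. None of the 10 passed edgeR's adjusted p of 0.05, nor did any with limma-voom. The share of genes that passed was 0.0655% with edgeR (10 genes) and 0.0458% with limma-voom. With unadjusted p under 0.05 in edgeR, 4 members were lower (4.59% of all genes were), and DESeq2 called 3 members lower, Slc6a20a, Slc6a20b and Slc16a10 (0.833% of genes were called in either direction).

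The proline carrier Slc6a20a had 107, 185 and 163 CPM in HFD, against 339, 234 and 378 CPM in Chow libraries. The highest HFD library was below the lowest Chow library. Its fitted level on the diet was 0.483 of that on chow (log2 -1.05, SE 0.24; edgeR's quasi-likelihood adjusted p = 0.203, DESeq2's 0.00826). In the authors' deposited table the log2 difference was -0.86 with an adjusted p of 0.0235.

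Its paralogue Slc6a20b had 2.08, 1.48 and 3.55 CPM in HFD, against 7.02, 6.73 and 13.9 CPM in Chow libraries, which rest on 9 to 63 counts in HFD and 47 to 228 counts in Chow. The groups did not overlap. The log2 difference was -1.94 (SE 0.40; edgeR's adjusted p = 0.159, DESeq2's 0.00258), and the authors' deposited table gives -1.2 with an adjusted p of 0.00627. In that table these were the 2 members with an adjusted p under 0.05, as 0.378% of its genes had. Without HFD 38 it passed edgeR's threshold as well (log2 -2.46, adjusted p = 0.0415), where 0.421% of genes did. With no filter on low counts edgeR called Slc6a20b, Slc6a20a, Slc15a1 and Slc16a10 lower, and 1.25% of genes. Without Chow 19 the log2 differences of these members were smaller, at -1.49, -0.90, -0.67 and -0.73 in the same order. None of them was then called (edgeR's adjusted p of 0.575 to 0.991), where 6 of 14814 genes were.

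PepT1's gene Slc15a1 had 152, 316 and 383 CPM in HFD, against 526, 387 and 763 CPM in Chow libraries. The top HFD value and the bottom Chow value were within 4 CPM of each other and did not overlap. The fitted level was 0.513 of that on chow (log2 -0.96, SE 0.35; edgeR's adjusted p = 0.425, DESeq2's 0.160). Leaving out HFD 4 left a difference of -0.67 on the log2 scale.

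On the basolateral side Slc16a10, the exit of aromatic amino acids, had 97.1, 144 and 184 CPM in HFD, against 251.5, 225 and 317 CPM in Chow libraries. Again no HFD library reached a Chow library. The log2 difference was -0.88 (SE 0.23; edgeR's adjusted p = 0.272, DESeq2's 0.0443), and the authors' deposited table gives -0.73 with an adjusted p of 0.107.

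Members whose groups did not overlap numbered 5, all lower on the diet: the 4 above and Slc7a8, which had 206, 256 and 253 CPM in HFD and 285, 257 and 338 CPM in Chow libraries (log2 -0.28, SE 0.18). Over all genes 8.8% were lower without overlap. Slc1a1, the glutamate carrier, had a log2 difference of -0.63 (SE 0.31), and its groups overlapped. Slc6a19 (-0.28), Slc3a1 (-0.23) and Slc7a7 (-0.11) had log2 differences smaller than their standard errors, and each turned to a small positive value (0.036, 0.030 and 0.085) without HFD 4. Slc7a9 alone was higher on the diet, with 105 ± 30.8 CPM in HFD against 86.4 ± 4.69 CPM in Chow (SD, n = 3 each; log2 0.30, SE 0.20). The log2 difference was 0.059 without HFD 30 and 0.47 without HFD 4 (edgeR's unadjusted p = 0.0137, adjusted p = 0.316). Slc7a9 and its partner Slc3a1 thus had opposite signs, and neither passed the test.

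With all libraries, enterocyte markers were evenly split: 9 of 18 had lower and 9 higher fitted levels on the diet, and their sum was 28292 to 56631 CPM in HFD and 40320 to 48130 CPM in Chow libraries. Without HFD 4, 17 of 18 were higher (median 0.35 on the log2 scale). Of these, 6 had an unadjusted p under 0.05 in edgeR, as 1155 of 16256 genes had in that direction, and none was called. Per 1000 counts of these markers, Slc15a1 had 5.36 to 6.77 counts in HFD against 9.59 to 15.9 in Chow. On the same scale Slc6a20a had 2.88 to 3.77 in HFD against 5.80 to 7.86 in Chow, and Slc16a10 had 2.84 to 3.43 in HFD against 5.59 to 6.59 in Chow. None of these ranges overlapped. Slc3a1 (3.40 to 3.76 in HFD, 3.95 to 5.41 in Chow) and Slc6a20b (0.029 to 0.073 in HFD, 0.160 to 0.288 in Chow) did not overlap either. Ranges of Slc6a19, Slc7a9, Slc1a1, Slc7a7 and Slc7a8 overlapped. The share of all genes without overlap on this scale was not computed. With libraries scaled to the markers, edgeR called Slc15a1 (log2 -1.03, adjusted p = 0.0421) and Slc6a20b (adjusted p = 0.0350), where 0.452% of genes were called. Markers of T cells and other leukocytes were lower on the diet in 9 of 9 (109 to 179 CPM in sum in HFD, 250.5 to 356 CPM in Chow), as were those of pancreatic acinar cells in 13 of 13 tested (14.1 to 34.3 CPM in HFD, 61.2 to 157 CPM in Chow). Their part in the result was not tested.

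Neighbours in protein absorption were read the same way. Of 16 peptidases of the brush border and cytosol tested, 14 were lower on the diet (median -0.75). Of these, 8 had an unadjusted p under 0.05, as 4.59% of all genes had in that direction. Without HFD 4, 12 of the 16 were lower (median -0.50). With all libraries none was called by edgeR or limma-voom. DESeq2 called 0.833% of all genes and 5 peptidases, all lower: Anpep, Enpep, Lap3, Naaladl1 and Xpnpep2. Anpep, aminopeptidase N, which trims peptides at the brush border, averaged 1609 ± 784 CPM in HFD and 3954 ± 936 CPM in Chow (log2 -1.29, SE 0.35; SD, n = 3 each). Enpep, aminopeptidase A, averaged 523 ± 248 CPM in HFD and 1278 ± 321 CPM in Chow (log2 -1.28, SE 0.33), and Naaladl1 51.3 ± 27.4 CPM in HFD and 156 ± 24.3 CPM in Chow (log2 -1.59, SE 0.33). Other amino acid and peptide transporters were mixed, with 8 lower and 11 higher of 19 tested. None of them was called by edgeR or limma-voom. At an unadjusted p under 0.05, 1 was lower and 1 higher, as 702 and 879 of 15278 genes were. DESeq2 called Slc36a1. Slc36a1, the proton-coupled carrier of small amino acids, averaged 56.8 ± 19.7 CPM in HFD and 146 ± 57.2 CPM in Chow (log2 -1.34, SE 0.32; edgeR's adjusted p = 0.266). Slc38a1 (0.59) and Slc1a5 (0.54), carriers of glutamine, had positive log2 differences.

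Among the partners, Slc9a3 encodes the sodium-proton exchanger NHE3, which keeps up the acid layer that drives PepT1. It averaged 254 ± 51.1 CPM in HFD and 195 ± 32.3 CPM in Chow (log2 0.40, SE 0.20; SD, n = 3 each), the sign opposite to that of Slc15a1. Pdzk1 (-0.37, SE 0.25), a scaffold of the brush border, and Slc3a2 (-0.27, SE 0.18) had negative log2 differences. None of the 5 partners tested was called by edgeR, DESeq2 or limma-voom, and none had an unadjusted p under 0.05.

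**Figure D2:**
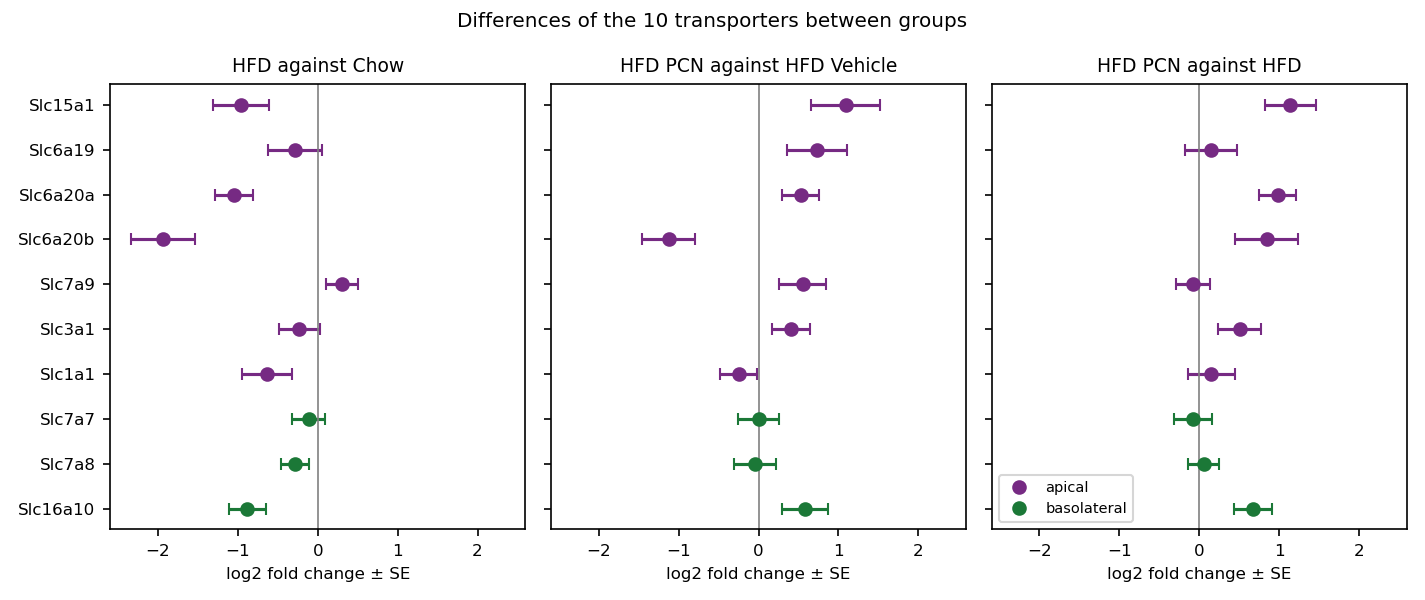
Fitted log2 fold change ± SE (edgeR) of the 10 transporters in 3 comparisons, each with 3 libraries a group, coloured by membrane side. Most points lie left of 0 for HFD against Chow and right of 0 for HFD PCN against HFD Vehicle and against HFD. In the last 2, 5 and 3 of the positive values turn negative when libraries are scaled to enterocyte markers. That scaling, not drawn here, moves the median of all genes to -0.85 and -0.30. No point drawn passes an adjusted p of 0.05.

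PCN was then compared with its vehicle on the high-fat diet. Of the 10 transporters, 7 had higher and 3 lower fitted levels in HFD PCN than in HFD Vehicle. The median was 0.47 on the log2 scale, against -0.012 over all 16110 genes tested, of which 51% were negative. Scaling to enterocyte markers turned 5 of the 7 to negative values, from -0.71 to -0.061. That scaling also made 14546 of the 16110 genes negative, with a median of -0.85, so that these 5 values lay above the median gene. Without it, none of the 10 members was called by edgeR (0.0621% of genes were), DESeq2 (1.93%) or limma-voom (0.0435%). In edgeR 3 members had an unadjusted p under 0.05, as did 17.9% of all genes. Slc15a1, Slc6a20a, Slc7a9 and Slc16a10 were higher without overlap between groups, where 9.69% of genes were, and Slc6a20b was lower without overlap, where 9.66% were.

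Slc15a1 had 757, 647 and 478 CPM in HFD PCN, against 124, 286 and 478 CPM in HFD Vehicle libraries. The groups met at 478 CPM, where HFD PCN 27 and HFD Vehicle 55 stood within 1 CPM. The fitted difference was 1.09 on the log2 scale (SE 0.43; edgeR's adjusted p = 0.254). It was 0.60 when scaled to enterocyte markers, 0.72 without HFD Vehicle 23 and 1.61 (adjusted p = 0.0159) without HFD Vehicle 55. In that last fit 22% of all genes were called, and among members also Slc6a19 (1.26) and Slc6a20b (-1.24). Against HFD Vehicle 55 alone it was 0.40, where the spread comes from the HFD PCN libraries alone and the lone library is assumed to vary as they do.

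Slc6a20a had 321, 335 and 246 CPM in HFD PCN, against 175, 218 and 233 CPM in HFD Vehicle libraries (log2 0.53, SE 0.23; -0.24 when scaled to enterocyte markers). Slc6a20b, its neighbour, went the other way, with 3.49, 3.31 and 6.45 CPM in HFD PCN against 8.76, 11.7 and 7.73 CPM in HFD Vehicle libraries. All 3 HFD PCN values lay below all 3 HFD Vehicle values, on 47 to 70 counts in HFD PCN and 38 to 220 counts in HFD Vehicle libraries. The log2 difference was -1.12 (SE 0.34; edgeR's adjusted p = 0.231). Per kb, Slc6a20b stood at 0.00473 to 0.0125 of Slc6a20a in HFD PCN, 0.0159 to 0.0256 in HFD Vehicle, 0.00383 to 0.0104 in HFD and 0.00989 to 0.0175 in Chow.

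Slc6a19 averaged 665 ± 54.6 CPM in HFD PCN and 401 ± 226 CPM in HFD Vehicle (SD, n = 3 each; log2 0.73, SE 0.37), with HFD Vehicle 55 (649 CPM) inside the HFD PCN range. Its log2 difference was 0.18 when scaled to enterocyte markers, 0.42 without HFD Vehicle 23 and 0.040 without HFD Vehicle 23 and 50. Slc7a9 averaged 100.2 ± 8.08 CPM in HFD PCN and 68.5 ± 27.0 CPM in HFD Vehicle (log2 0.55, SE 0.29), and Slc3a1 236 ± 40.3 CPM in HFD PCN and 177 ± 36.1 CPM in HFD Vehicle (log2 0.41, SE 0.24), both negative when scaled to enterocyte markers (-0.061 and -0.40). Of the basolateral carriers, Slc16a10 had 269, 223 and 192 CPM in HFD PCN and 95.4, 188 and 175 CPM in HFD Vehicle libraries (log2 0.58, SE 0.29; -0.085 when scaled to the markers). Slc7a7 had a log2 difference of 0.0019 (SE 0.26) and Slc7a8 one of -0.043 (SE 0.27), and scaled to the markers these were -0.71 and -0.74. Slc1a1 stood at -0.25 (SE 0.23), and at -1.15 when scaled to the markers.

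All 18 enterocyte markers had higher fitted levels in HFD PCN than in HFD Vehicle (median 0.54 on the log2 scale), 2 of them with an unadjusted p under 0.05 and none called by edgeR, DESeq2 or limma-voom. Their sum was 50430 to 54455 CPM in HFD PCN and 17175 to 53909 CPM in HFD Vehicle libraries, where HFD Vehicle 23 was the lowest and HFD Vehicle 55 the highest. Scaling to these markers shifted the median of all genes to -0.85 on the log2 scale. Per 1000 marker counts Slc15a1 had 8.78 to 14.0 counts in HFD PCN and 7.21 to 8.86 in HFD Vehicle, and the groups overlapped. Paneth cell markers were lower in 9 of 9 (277 to 593 CPM in sum in HFD PCN, 592 to 2667 CPM in HFD Vehicle), and 9 of 9 smooth muscle markers were lower as well (964 to 1067 CPM in HFD PCN, 1018 to 1810 CPM in HFD Vehicle). What these shifts contribute to the transporter values was not tested beyond the scaling.

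Of 16 peptidases, 14 had higher levels in HFD PCN than in HFD Vehicle (median 0.60 on the log2 scale), 3 with an unadjusted p under 0.05, which 17.9% of all genes had. Scaled to enterocyte markers 7 were higher and 9 lower (median -0.13), where 14546 of 16110 genes were lower (median -0.85). Without HFD Vehicle 23 the median was 0.34 with 10 higher. With all libraries and no such scaling, none was called by edgeR or limma-voom, and DESeq2 called Naaladl1, as it did 1.93% of all genes. Naaladl1 averaged 143 ± 17.5 CPM in HFD PCN and 72.3 ± 11.5 CPM in HFD Vehicle (log2 0.98, SE 0.21; SD, n = 3 each). Dpp4, a dipeptidyl peptidase of the brush border, stood at 703 ± 147 CPM in HFD PCN and 374 ± 206 CPM in HFD Vehicle (log2 0.91, SE 0.39), and Lap3, a cytosolic aminopeptidase, at 188 ± 49.4 CPM in HFD PCN and 122 ± 30.2 CPM in HFD Vehicle (log2 0.62, SE 0.27). Of 19 other amino acid and peptide transporters 13 were lower and 6 higher. Scaled to enterocyte markers all 19 were lower (median -1.03), as were 14546 of 16110 genes (median -0.85). Without that scaling 3 of the lower and 1 of the higher had an unadjusted p under 0.05, and none was called by edgeR, DESeq2 or limma-voom. Slc38a2 (-0.63) and Slc1a5 (-0.87), both carriers of neutral amino acids, were negative, and Slc38a1 (0.73) was positive.

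All 5 partners tested had higher fitted levels in HFD PCN than in HFD Vehicle. It was 2 of 5 when scaled to enterocyte markers (median -0.090, against -0.85 over all genes) and 4 of 5 without HFD Vehicle 23. With all libraries and no such scaling, none was called by edgeR, DESeq2 or limma-voom. Slc9a3 was the 1 with an unadjusted p under 0.05, as 17.9% of all genes had. Slc9a3 averaged 238 ± 26.3 CPM in HFD PCN and 156 ± 42.3 CPM in HFD Vehicle (log2 0.60, SE 0.25; SD, n = 3 each). Pdzk1 had a log2 difference of 0.62 (SE 0.36), and Slc3a2 one of 0.033 (SE 0.22).

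**Figure D3:**
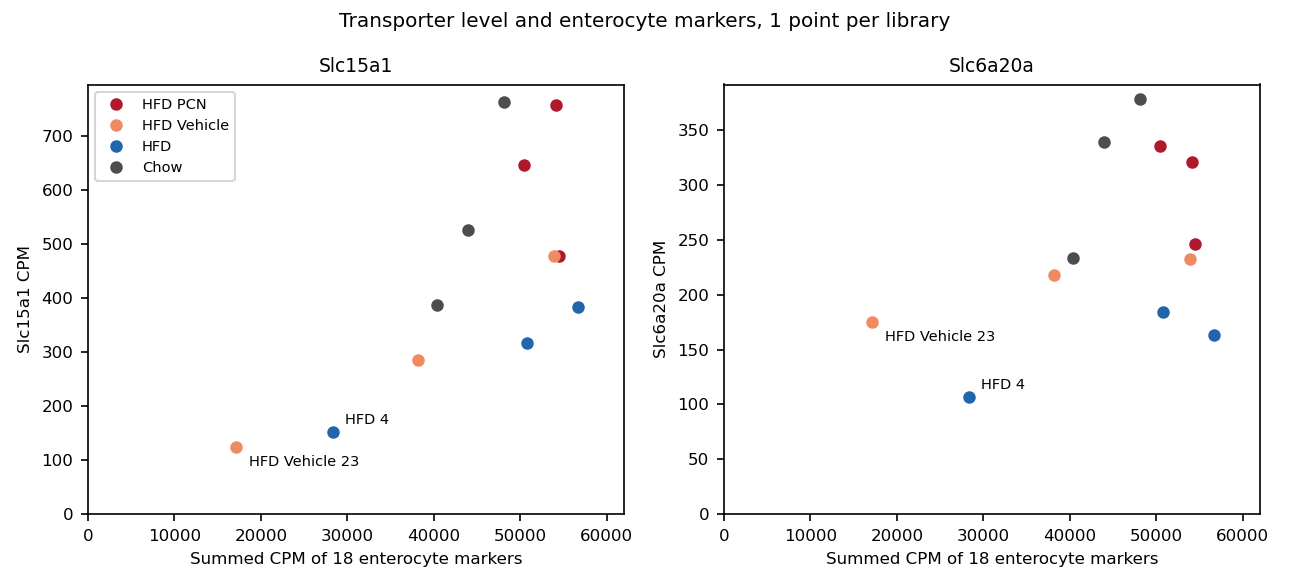
Level of Slc15a1 and of Slc6a20a in CPM against the summed CPM of 18 enterocyte markers, 1 point per library, coloured by group, both axes linear from 0. HFD Vehicle 23 and HFD 4 have the lowest marker sums and the lowest Slc15a1 levels, and in both panels HFD 30 and HFD 38 lie below all Chow libraries at higher marker sums.

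Because HFD Vehicle libraries were uneven, HFD PCN was also set against the HFD libraries that had no injection, which shares libraries with both comparisons above. Slc15a1 was 2.20 times as high in HFD PCN as in HFD (log2 1.14, SE 0.32), with 478 to 757 CPM in HFD PCN and 152 to 383 CPM in HFD. The groups did not overlap. Slc6a20a (log2 0.98, SE 0.23) and Slc16a10 (0.68, SE 0.24) were also higher without overlap, so that 3 members were, against 11.5% of all genes. None passed edgeR (adjusted p of 0.146 for Slc15a1, 0.0986 for Slc6a20a and 0.189 for Slc16a10; 0.325% of genes passed) or limma-voom (0.257% passed). These 3 members had an unadjusted p under 0.05 in edgeR, as 8.38% of genes had in that direction, and DESeq2 called Slc15a1 (adjusted p = 0.00859) and Slc6a20a (0.00366), where 3.04% of genes were called.

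Of the 10 members 8 were higher in HFD PCN than in HFD, with a median of 0.33 on the log2 scale (49.9% of all genes were lower). Slc6a19, Slc1a1 and Slc7a8 turned negative (-0.028, -0.20 and -0.25) when libraries were scaled to enterocyte markers. With that scaling 12100 of 15982 genes were negative (median -0.30). Slc3a1 was at 0.51 (SE 0.27), Slc6a19 at 0.15 (SE 0.32), Slc1a1 at 0.15 (SE 0.30) and Slc7a8 at 0.055 (SE 0.19). Slc7a9 was at -0.078 and Slc7a7 at -0.080. Slc6a20b was at 0.84 (SE 0.39), the opposite sign to its value against HFD Vehicle. Without HFD 38, edgeR called Slc15a1 (log2 1.41, adjusted p = 0.0443), where 2.75% of genes were called. Its log2 difference was 0.84 without HFD 4 (edgeR's adjusted p = 0.222) and 0.96 without HFD PCN 5 (0.539). With no filter on low counts edgeR called Slc15a1 and Slc6a20a, and 2.9% of genes.

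The vehicle libraries themselves were compared with HFD last. Slc6a20b was the member that stood apart, with 8.76, 11.7 and 7.73 CPM in HFD Vehicle and 2.08, 1.48 and 3.55 CPM in HFD libraries. It was higher without overlap, as were 4.94% of genes (log2 1.97, SE 0.38; edgeR's adjusted p = 0.803, DESeq2's 0.0255), and it was the member with an unadjusted p under 0.05, as 3.65% of genes had in that direction. No gene was called over the whole table by edgeR or limma-voom (0%), whereas 953 of 16255 had an unadjusted p under 0.05 in edgeR and DESeq2 called 32 (0.18%). Without HFD Vehicle 55 edgeR called 260 genes, 1.54% of those tested, and Slc6a20b among them (log2 2.06, adjusted p = 0.0460). The other 9 members had log2 differences from -0.64 (Slc7a9) to 0.45 (Slc6a20a), and their groups overlapped.

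The sides of the cell were compared by summing counts in each library. The 7 apical carriers summed to 1951 ± 159 CPM in HFD PCN, 1180 ± 452 in HFD Vehicle, 1320 ± 503 in HFD and 1925 ± 388 CPM in Chow (SD, n = 3 each). The 3 basolateral carriers summed to 603 ± 48.6 CPM in HFD PCN, 534 ± 153 in HFD Vehicle, 513 ± 109 in HFD and 703 ± 90.7 CPM in Chow. The ratio of apical to basolateral counts was 3.32, 3.62 and 2.81 in HFD PCN and 2.03, 1.83 and 2.73 in HFD Vehicle libraries, so that all 3 HFD PCN libraries were above all 3 HFD Vehicle libraries. It was 1.88, 2.96 and 2.68 in HFD and 2.90, 2.42 and 2.85 in Chow libraries, which overlapped.

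As differences in log2 ratio these came to 0.58 for HFD PCN against HFD Vehicle, 0.39 for HFD PCN against HFD, -0.19 for HFD Vehicle against HFD and -0.14 for HFD against Chow, with SDs of the group values between 0.14 and 0.34. The members were chosen with results of these data known, so the ratio carries no test. The sum is ruled by Slc6a19 and Slc15a1. Without both the ratio was 1.14, 1.25 and 0.909 in HFD PCN and 1.11, 0.847 and 0.847 in HFD Vehicle libraries, which overlapped. With each carrier weighted equally the difference for HFD PCN against HFD Vehicle was 0.12, that for HFD PCN against HFD was 0.36, that for HFD Vehicle against HFD was 0.24 and that for HFD against Chow was -0.28, with SDs of the group values between 0.077 and 0.15. Equal weights give the rare Slc6a20b, whose values are uncertain, as much weight as any other apical carrier. Slc6a20b's own log2 differences were -1.12, 0.84, 1.97 and -1.94 in the same order, and the ratio without it was not computed. By library the equally weighted values were -0.84, -0.69 and -0.85 in HFD PCN and -0.81, -1.09 and -0.85 in HFD Vehicle, which overlapped. Within the basolateral side, the log2 difference on the diet was -0.88 for Slc16a10, -0.11 for Slc7a7 and -0.28 for Slc7a8. The median log2 difference on the diet was -0.63 over the apical and -0.28 over the basolateral carriers, and in HFD PCN against HFD Vehicle it was 0.53 over the apical and 0.0019 over the basolateral carriers. Scaled to enterocyte markers, the medians in HFD PCN against HFD Vehicle turned to -0.24 over the apical and -0.71 over the basolateral carriers. Over all genes that scaling gave a median of -0.85. The ratio of counts within a library does not depend on the scaling.

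**Figure D4:**
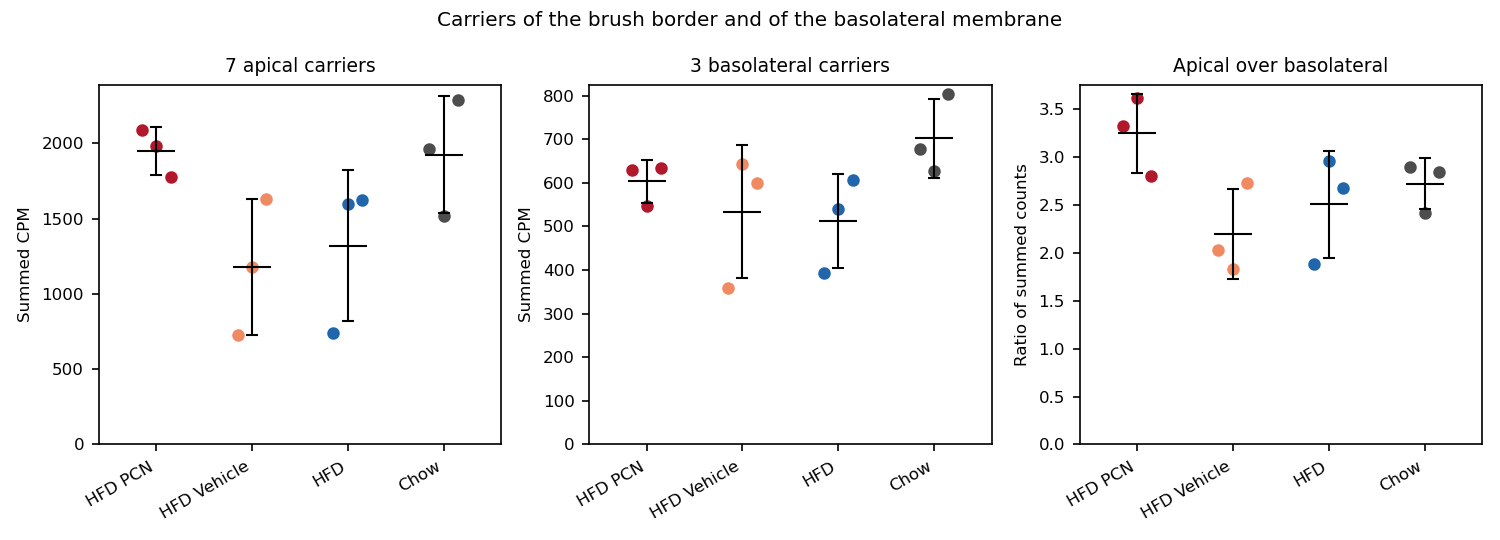
Summed CPM of the 7 apical carriers, of the 3 basolateral carriers, and the ratio of their summed counts, by group. Points are libraries and bars the mean ± SD of 3, on linear axes from 0. The ratio is 2.81 to 3.62 in HFD PCN and 1.83 to 2.73 in HFD Vehicle. Without Slc6a19 and Slc15a1, a ratio not drawn here, these groups overlap.

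The members also differed in how far they varied. Between the lowest and the highest of the 12 libraries, Slc6a20b differed 9.37 times, Slc15a1 6.16 times and Slc6a19 4.03 times, and the basolateral exchangers Slc7a7 and Slc7a8 differed 1.89 and 1.93 times. HFD Vehicle 23 was the lowest library for Slc15a1, Slc6a19, Slc7a9, Slc7a7, Slc7a8 and Slc16a10, and Chow 19 the highest for Slc15a1, Slc6a19, Slc6a20a, Slc6a20b, Slc1a1, Slc7a8 and Slc16a10. Across the 12 libraries, which share group, depth and tissue makeup, the correlation with the mean of the 18 enterocyte markers was 0.89 for Slc7a9 and Slc6a19 and 0.83 for Slc15a1. It was 0.49 for Slc6a20a, -0.21 for Slc6a20b and -0.26 for Slc1a1, which are descriptions of these libraries.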

How the data were processed

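RNA of 12 duodenal libraries was counted per gene. Raw counts were deposited by the authors in 2 tables, HFD with Chow and HFD PCN with HFD Vehicle, together with a log2 fold change and p-values of their own. The tools named in the submitters' processing notes are HISAT2, HTSeq and DESeq2, on GRCm38 (mm10). Versions, annotation and strand setting are not given in the sources used here. Counts were tested as deposited with edgeR 4.0.16 (filterByExpr, TMM, robust quasi-likelihood F-test, Benjamini-Hochberg over all genes tested, called at adjusted p under 0.05) in R 4.3.3, each comparison on its own 6 libraries. HFD PCN and HFD Vehicle were set against HFD on genes in both tables, across which no shared processing is stated. This left 4283521 of the 4925123 counts of HFD 4, a greater loss than in any other library. Standard errors are the fold change over the square root of F and approximate. Displayed CPM were TMM-scaled over 12 libraries, and levels per kb used GENCODE M21 exons. DESeq2 1.42.0, limma 3.58.1 (voom), other scalings and left-out libraries were alternatives. The edgeR fit was tested on simulated data.

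Named genes were all 10 members, their partners, called genes of the other lists in a main comparison (HFD against Chow, HFD PCN against HFD Vehicle), the up to 3 peptidases and other amino acid transporters with the smallest p in each, label checks, and the 5 genes most and least like the members' mean. The values of a partner gene are not reported here. Other names (Hsp90aa1, genes called by DESeq2) were chosen after their values were seen. The members and lists were chosen with earlier results of these data known. Promoters are RefSeq's (GRCm38.p6), and motifs were matched by letters. Precision is limited by 3 libraries a group and, for Slc6a20b, by counts as low as 9.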

Additional observations from a re-analysis of the deposited data

How the results depend on the processing

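With edgeR as described and all libraries, no member passed the threshold in any of the 4 comparisons. Under alternatives some did: Slc6a20b, Slc6a20a, Slc15a1 and Slc16a10 on the diet with no filter, Slc15a1 and Slc6a20a in HFD PCN against HFD with no filter, Slc15a1 and Slc6a20b on the diet when scaled to enterocyte markers, and others named above with 1 library left out. The number of genes called was 10 for HFD against Chow and became 134 (DESeq2), 351 (no filter on low counts), 69 (scaled to enterocyte markers), 2 (all 12 libraries in 1 fit) and 4 to 63 with 1 library left out. For HFD PCN against HFD Vehicle it was 10 and became 339 (DESeq2), 843 (no filter), 6 (enterocyte markers), 34 (all 12 libraries), 2 (without HFD Vehicle 23 and 50, chosen after seeing the data, which leaves 1 HFD Vehicle library) and 0 to 3697 with 1 library left out, the highest without HFD Vehicle 55. For HFD PCN against HFD it was 52 and became 403 (DESeq2), 746 (no filter), 237 (enterocyte markers), 29 (all 12 libraries) and 1 to 452, lowest without HFD 4 and highest without HFD 38. For HFD Vehicle against HFD it was 0 and became 32 (DESeq2), 1 (no filter), 1 (all 12 libraries) and 0 to 260. The causes were not tested.

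Signs on the log2 scale turned as follows. Scaled to enterocyte markers, HFD PCN against HFD Vehicle gave Slc6a20a -0.24, Slc7a9 -0.061, Slc3a1 -0.40, Slc7a7 -0.71 and Slc16a10 -0.085, HFD PCN against HFD gave Slc6a19 -0.028, Slc1a1 -0.20 and Slc7a8 -0.25, and HFD Vehicle against HFD gave Slc7a7 0.38. This scaling moved the median of all genes to -0.85, -0.30 and 0.52 in those comparisons and to 0.040 for HFD against Chow. Slc7a7 also turned to -0.027 without mitochondrial and dominant genes and to -0.24 without HFD Vehicle 23 and 50. With 1 library left out, HFD against Chow ran from -0.51 to 0.036 for Slc6a19, -0.44 to 0.030 for Slc3a1 and -0.31 to 0.085 for Slc7a7. HFD PCN against HFD Vehicle ran from -0.19 to 0.17 for Slc7a7 and -0.25 to 0.14 for Slc7a8. HFD PCN against HFD ran from -0.18 to 0.36 for Slc6a19, -0.26 to 0.16 for Slc7a9, -0.17 to 0.46 for Slc1a1, -0.29 to 0.13 for Slc7a7 and -0.080 to 0.12 for Slc7a8. HFD Vehicle against HFD ran from -0.49 to 0.41 for Slc15a1, -0.20 to 0.31 for Slc3a1, -0.31 to 0.12 for Slc7a7, -0.0996 to 0.30 for Slc7a8 and -0.13 to 0.34 for Slc16a10. With each carrier weighted equally the difference in log2 apical to basolateral ratio was 0.12 for HFD PCN against HFD Vehicle and 0.24 for HFD Vehicle against HFD. In these values the rare Slc6a20b weighs as much as any other apical carrier. For HFD against Chow the ratio difference turned to 0.054 without HFD 4.

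No paired analysis was possible because the library numbers in the labels are all different, and no number is shared between groups.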

Other observations

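The genes whose level followed the mean of the 10 transporters most closely over the 12 libraries were Fmo4 (Pearson r of 0.966), Aoc1 (0.953), Ms4a10 (0.953), Cyp2j6 (0.951) and Slc3a2 (0.942). The least alike were Phldb2 (-0.943), Kat14 (-0.942), Miat (-0.936), Adamts9 (-0.935) and Snrnp70 (-0.927). Among the members, Slc16a10 (0.950) and Slc15a1 (0.905) were closest to the mean of which they are part, and Slc1a1 (0.272) was farthest from it. These values describe libraries that share groups, depth and tissue makeup.

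Genes of the amino acid response that ATF4 controls were lower in HFD PCN than in HFD Vehicle for 14 of 16 (median -0.56 on the log2 scale). Of these, 4 had an unadjusted p under 0.05, as 1847 of 16110 genes had in that direction. None was called by edgeR or limma-voom, and DESeq2 called Chac1 and Ddit4, as it did 1.93% of genes. The 16 genes summed to 245 to 295 CPM in HFD PCN and 317 to 592 CPM in HFD Vehicle libraries, highest in HFD Vehicle 23. Without that library 13 of 16 were lower (median -0.25). Without HFD Vehicle 23 and 50, which leaves 1 HFD Vehicle library, it was 10 of 16 (median -0.18). In HFD Vehicle against HFD 12 of 16 were higher (median 0.55) and 9 of 16 without HFD Vehicle 23 (median 0.12), which shares the HFD Vehicle libraries. Other nutrient carriers of the enterocyte were higher in HFD PCN than in HFD Vehicle for 11 of 11 tested (median 0.66). On the high-fat diet 8 of 12 were higher and 4 lower than on chow (median 0.32). None was called by edgeR, DESeq2 or limma-voom in either comparison. At an unadjusted p under 0.05, 2 were higher in HFD PCN and 1 was lower on the diet, as 1040 of 16110 and 702 of 15278 genes were. Without HFD 4 the median on the diet was 0.51. In that fit 6 of 12 were higher at an unadjusted p under 0.05, as 1155 of 16256 genes were, and none was called. All 18 enterocyte markers were likewise higher in HFD PCN than in HFD Vehicle (median 0.54). The nutrient carriers summed to 7671 to 8639 CPM in HFD PCN, against 2381 CPM in HFD Vehicle 23 and 6188 and 6896 CPM in the other HFD Vehicle libraries. Scaled to the enterocyte markers 5 of these 11 carriers were higher (median -0.053, against -0.85 over all genes). Without HFD Vehicle 23 it was 10 of 12 tested (median 0.30).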
